A study of Mus musculus with 2 samples.

Results

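The 8 genes described here serve cholesterol export, lipoproteins and phospholipid remodelling under the liver X receptor (LXR): the transporter genes Abca1 and Abcg1, the apolipoprotein genes Apod and Apoe, the lipid transfer gene Pltp, the acyltransferase gene Lpcat3, the ubiquitin ligase gene Mylip, and Nr1h3, which encodes LXRα itself. They were picked by gene symbol in the platform annotation, which gives them 13 of the 45101 probe sets on the array and makes them 8 of 18194 named genes. Each probe set reads a transcript through several short probes. Skeletal muscle RNA came from RXRγ mice, which carry an RXRγ transgene driven by the human α-actin promoter (line 4-3), and from non-transgenic control mice. All animals were C57BL6 females at 4 months of age, and free feeding is stated for the RXRγ mice. RNA was pooled within each genotype (3 animals in the extraction protocol, 5 in the study's methods), and each pool was hybridized to 1 Affymetrix MG430 array. There is thus 1 array per genotype, from 1 transgenic line, with no replicates, no error and no test, and having only 2 arrays limits how precise any value can be.

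LXRα and LXRβ are nuclear receptors that are activated by oxidized forms of cholesterol. They bind DNA as heterodimers with a retinoid X receptor (RXR), usually at 2 copies of a motif of 6 bases in the same orientation, spaced by 4 bases. Their target genes move cholesterol out of cells, load it onto lipoproteins, reduce its uptake and raise fatty acid synthesis, and they have been studied most in macrophages, liver and intestine. The RXR subtype encoded by Rxrg is the one that is enriched in skeletal muscle.

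To show the DNA on which such heterodimers could sit, the windows from 250 bases before to 50 bases after the transcription start sites were taken from RefSeq (GRCm38.p6). Of the 8 genes, 7 matched, with 10 windows in all; Abcg1 is named only. The direct repeat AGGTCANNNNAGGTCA was searched on both strands, allowing 0 to 2 mismatches over its 12 fixed positions. None of the 7 genes had such a match, against 3.02% of all 32851 windows. With 3 mismatches, a limit set after the windows were seen, 1 of the 7 genes had a match, against 21.9% of all windows. That gene was Abca1, whose 250 bases before the start are printed because they carry this match, with its 16 bases in capitals (chr4:53159896-53160145, minus strand, GRCm38.p6).
Abca1, upstream: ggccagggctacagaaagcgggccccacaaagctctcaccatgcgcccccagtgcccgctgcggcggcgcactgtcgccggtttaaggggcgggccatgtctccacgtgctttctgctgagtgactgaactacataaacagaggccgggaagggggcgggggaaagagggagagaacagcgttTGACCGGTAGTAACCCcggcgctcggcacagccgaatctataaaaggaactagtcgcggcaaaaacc
Read on the opposite strand, these 16 bases span positions -67 to -52 from the start of Abca1. The letters of its 2 motifs, GGGTTANNNNCGGTCA, taken from the Abca1 window itself, were then looked for in all windows and occurred in 3 of 32851, those of 3 genes: Abca1, the fatty acid synthase gene Fasn and the lipogenic transcription factor gene Srebf1. Abca1 is among them because its own letters were used. The windows of Srebf1 had been scanned for the direct repeat beside those of the 8 genes before this count. Fasn and Srebf1 are LXR targets that are not among the 8. Their matches are printed beside that of Abca1, with the motifs in capitals and the spacer in lower case.
Abca1, chr4:53159947-53159962: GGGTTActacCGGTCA
Fasn, chr11:120824757-120824772: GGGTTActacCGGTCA
Srebf1, chr11:60210638-60210653: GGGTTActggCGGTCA
The match of Fasn (positions -225 to -210) was identical to that of Abca1 at all 16 bases, and that of Srebf1 (positions -182 to -167 in 1 of its windows) at 14 of 16. All of them lie on the strand opposite to the gene. The best matches of the other 6 genes had 4 or 5 mismatches, and 76.9% of all windows hold 1 with up to 4. A match in these letters is a description of the window and not of a bound site, and other parts of the genes were not searched.

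Of the 13 probe sets, 5 had a signal over 250 on at least 1 array, 7 were under 150 on both, and 1, that of Lpcat3, crossed 150. The signals are the authors' own, on a linear scale that had been set to the same trimmed mean on both arrays. A gene was taken as measured where a probe set named for it alone passed 250 on its brighter array, and its value is the mean log2 ratio of RXRγ over control mice across those probe sets. It was counted as higher or lower in RXRγ mice at a log2 ratio of 0.4 in that direction, the size used in the study. Where a signal was under 150, the level the study treated as substantial expression, the fold is given as a lower bound, or not at all if both signals were.
In this way 5 of the 8 genes were measured, each through 1 probe set. Apod, Abca1 and Apoe were higher in RXRγ mice, Mylip and Pltp were within 0.4, and none was lower. Of all 3780 measured genes, 16.8% were higher and 20.1% were lower. In the signal range of Apod, 600 to 2000, the shares were 17.7% and 23.1%. The median log2 ratio was 0.54 for the 5 genes and -0.04 for all measured genes. Apod, Abca1 and Apoe also stand in the study's list of increased genes. Its methods describe arrays of the same kind and design but cite another series number than that of the table used here, and the list is not counted as independent evidence. In pooled muscle, a change in RNA per cell and a change in the number of cells of a type cannot be told apart.

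**Figure D1:**
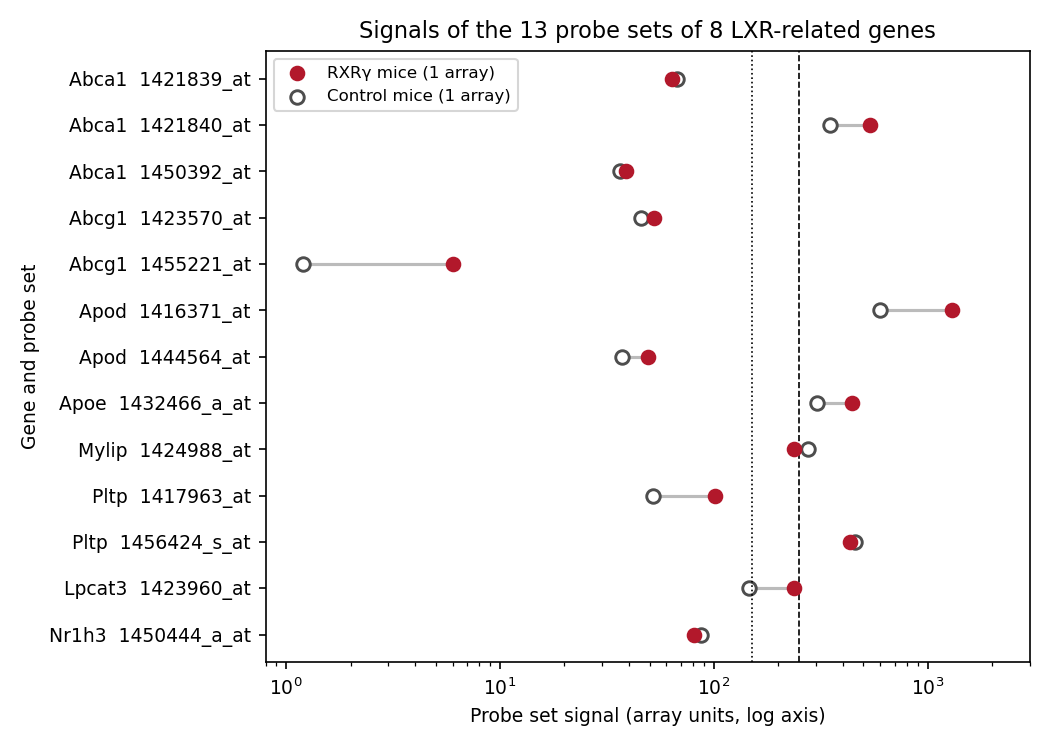
Signal of each of the 13 probe sets in RXRγ mice (filled red) and control mice (open grey), in array units on a log axis, 1 array per genotype. The dashed line marks 250 and the dotted line 150; the filled points of Apod (1297.4), Abca1 (534.6) and Apoe (443.9) lie to the right of 250 and of their open points, and 7 probe sets lie left of 150 on both arrays.

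Abca1, which hands cholesterol and phospholipid from the cell to lipid-poor apolipoproteins, was 1.52-fold higher at 1 of its 3 probe sets. The signal of that probe set was 534.6 in RXRγ mice, against 350.7 in control mice (log2 ratio 0.61). The other two were dim on both arrays and nearly level, at 63.7 in RXRγ mice, against 66.9 in control mice, and at 38.7 in RXRγ mice, against 36.4 in control mice. The difference thus rests on 1 probe set, and the mean over all 3 was 0.21. Of all measured genes, 10.3% had a log2 ratio at least as high as that of Abca1.
Abcg1, which acts after Abca1 and passes cholesterol to more mature lipoprotein particles, was not measured. Its brighter probe set had 52.4 in RXRγ mice, against 45.5 in control mice, while its other one had 6.0 in RXRγ mice, against 1.2 in control mice. Both lie far under 150, where no fold can be given.
The other members of the 2 transporter families were mostly dim as well. Of 13 further ABCA genes named on the array, 2 were measured and both were higher. They were Abca8a (1160 in RXRγ mice, against 784 in control mice, log2 ratio 0.56) and Abca9 (370 in RXRγ mice, against 214 in control mice, log2 ratio 0.79). These lie in a cluster of closely related genes, and cross-hybridization among them was not tested. With the second, dim probe set of Abca9 included its log2 ratio was 0.05. Of 5 further ABCG genes, only Abcg2, a transporter of drugs and porphyrins, was measured, and it lay within 0.4 (426 in RXRγ mice, against 356 in control mice, log2 ratio 0.26).

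Apod had the largest difference of the 5 measured genes. It encodes apolipoprotein D, a secreted carrier of the lipocalin family that binds small lipids such as arachidonic acid. The signal of its brighter probe set was 1297.4 in RXRγ mice, against 595.9 in control mice, 2.18-fold (log2 ratio 1.12). It was the only 1 of the 5 to reach a log2 ratio of 1, as did 5.05% of all measured genes, and 4.05% had a value at least as high. Its second probe set was dim, with 49.0 in RXRγ mice, against 37.3 in control mice. None of the 11 other lipocalin genes listed was measured, the retinol-binding protein gene Rbp4 being nearest to the limit (206 in RXRγ mice, against 121 in control mice).
Apoe encodes apolipoprotein E, a ligand of the LDL receptor family that macrophages and many other cells secrete. Its only probe set had 443.9 in RXRγ mice, against 305.0 in control mice, which is 1.46-fold (log2 ratio 0.54). Both signals were above 250, and 11.9% of measured genes had a log2 ratio at least as high. Among the 2201 genes whose brighter signal lay between 250 and 600, as did those of Apoe and Abca1, 17.4% were higher and 18.9% lower by the same rule. Next to Apoe in the RefSeq annotation lie Apoc1 and Apoc4, which encode small apolipoproteins and were dim on both arrays (Apoc1 had 43.2 in RXRγ mice, against 38.2 in control mice, and Apoc4 had 3.30 in RXRγ mice, against 2.50 in control mice).
No other apolipoprotein gene was higher. Of 18 further genes of that name or function on the array, 3 were measured and 2 were lower. Clu, which encodes clusterin (also called apolipoprotein J), had a mean of 138 in RXRγ mice, against 652 in control mice over 4 probe sets, whose log2 ratios ran from -2.45 to -1.45 (-1.45 without the probe sets marked as less specific). Since its mean in RXRγ mice is under 150, its difference is given as a bound, at least 4.08-fold lower with each signal under 150 set to 150. Apoo, which in spite of its name encodes a protein of the mitochondrial inner membrane, had 1359 in RXRγ mice, against 2349 in control mice (log2 ratio -0.79), and its relative Apool lay within 0.4 (log2 ratio 0.20). Apoa1, Apob, Apoc2 and Apoc3, apolipoproteins of liver and intestine, were under 30 on both arrays.

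**Figure D2:**
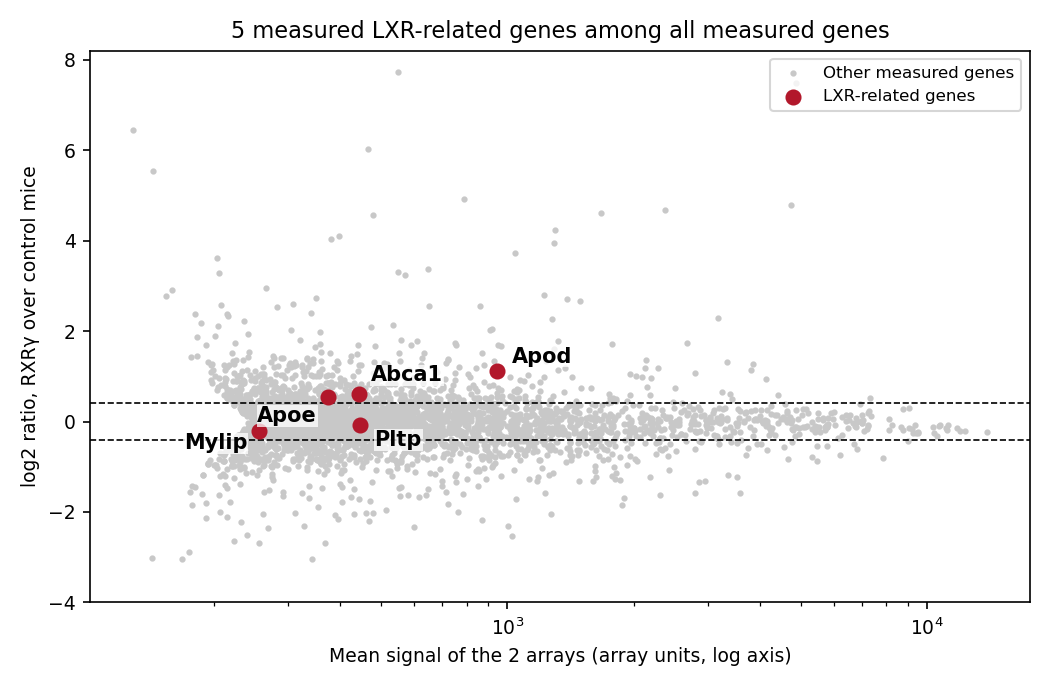
log2 ratio of RXRγ over control mice against the mean signal of the 2 arrays (log axis, array units), 1 point per measured gene, with the 5 measured LXR-related genes in red and dashed lines at 0.4 in either direction. Apod (1.12), Abca1 (0.61) and Apoe (0.54) lie above the upper line, and Mylip (-0.20) and Pltp (-0.08) between the lines.

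Mylip encodes a ubiquitin ligase, also called IDOL, that sends receptors of the LDL receptor family to degradation. Its probe set had 238.0 in RXRγ mice, against 274.2 in control mice, a log2 ratio of -0.20, close to the limit of 250. Of the receptors it acts on, Vldlr was lower in RXRγ mice, with a mean of 646, against 1289 in control mice, over its 4 measured probe sets, which all went the same way (log2 ratios from -1.79 to -0.67). The VLDL receptor takes up triglyceride-rich lipoproteins in muscle, heart and fat. Another, Lrp8, was at 10.2 in RXRγ mice, against 12.2 in control mice, and was not measured.
Of 16 receptors and partners listed that are named on the array, 8 were measured, 3 were higher and 1, Vldlr, was lower (median log2 ratio 0.31). The higher ones were the sorting receptor genes Sort1 (556 in RXRγ mice, against 366 in control mice, log2 ratio 0.60) and Sorl1 (446 in RXRγ mice, against 354 in control mice, at least 1.37-fold since 1 of its probe sets was under 150 in control mice), and Lrp1, a large receptor that clears Apoe-bearing particles (266 in RXRγ mice, against 198 in control mice, log2 ratio 0.42). The bright probe set of Sorl1 had a log2 ratio of 0.17, so its call rests on the dimmer one, and under median scaling Lrp1 fell short of the threshold (0.33).

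Pltp encodes the phospholipid transfer protein, which moves phospholipid between lipoproteins in plasma. Its 2 probe sets differed. The brighter one had 434.3 in RXRγ mice, against 457.7 in control mice (log2 ratio -0.08), and it is of the kind that may also bind transcripts of other genes. The other had 101.7 in RXRγ mice, against 51.9 in control mice, under 150 on both arrays. The mean over both, 0.45, would pass the threshold, so whether Pltp counts as higher depends on the signal filter. Pltp overlaps Ctsa, which encodes a lysosomal protease, and Ctsa lay within 0.4 as well (241 in RXRγ mice, against 254 in control mice, log2 ratio -0.07). Of 10 other genes of the PLTP family and of lipoprotein remodelling, 2 were measured and both lay within 0.4. They were the lipoprotein lipase gene Lpl (3217 in RXRγ mice, against 3707 in control mice, log2 ratio -0.22) and the paraoxonase gene Pon2 (222 in RXRγ mice, against 279 in control mice, log2 ratio -0.33).

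Lpcat3 encodes the enzyme that puts polyunsaturated fatty acids into phospholipids. Its single probe set had 236.3 in RXRγ mice, against 145.6 in control mice, and so missed the limit of 250. The control signal was under 150, and the difference is therefore at least 1.58-fold. When signals over 150 on the brighter array were accepted, Lpcat3 was the only gene of the 8 to be added, and it was higher (log2 ratio 0.70), as were 18.3% of the 5359 genes measured in that way, with 19.2% lower. Lpcat3 overlaps Emg1, a gene of ribosome assembly, which went the other way (911 in RXRγ mice, against 1236 in control mice, log2 ratio -0.44).
Of 14 related acyltransferase genes, 4 were measured, of which 2 passed the threshold upwards and 0 downwards. These were Lclat1 (334 in RXRγ mice, against 239 in control mice, log2 ratio 0.48), which acts on cardiolipin, and Agpat3 (339 in RXRγ mice, against 247 in control mice, log2 ratio 0.46), which like Lpcat3 acylates lysophospholipids. Both differences were small, and under median scaling they were 0.38 and 0.36 and missed the threshold. Both genes had a signal under 250 in control mice, so neither is counted where both arrays must pass 250. The shares over all measured genes were 16.8% higher and 20.1% lower. Lpcat1, Lpcat2 and Lpcat4, which share its name, were not measured, and neither were Mboat1, Mboat2 and Mboat7 of the same list.

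Nr1h3 was dim, at 80.8 in RXRγ mice, against 86.6 in control mice, so no change in the level of LXRα can be read from it. No probe set is named for Nr1h2, the gene of LXRβ, alone. Among the RXR genes, the product of the transgene was far higher, with Rxrg at 9172 in RXRγ mice, against 334 in control mice (27.4-fold). Rxra and Rxrb were lower, at 243 in RXRγ mice, against 345 in control mice (log2 ratio -0.51) and at 237 in RXRγ mice, against 398 in control mice (log2 ratio -0.75). Only 1 of the 3 probe sets of Rxra was measured. Of 13 receptor and cofactor genes named on the array, 11 were measured, 2 were higher and 5 were lower.
Med1 and Tbl1xr1 had the largest decreases among these cofactors. Med1, a mediator subunit that nuclear receptors contact, had 172 in RXRγ mice, against 302 in control mice, at 1 of its 7 probe sets. Tbl1xr1, which helps exchange corepressors for coactivators, had 206 in RXRγ mice, against 362 in control mice, at 1 of its 6 probe sets. No other probe set of either gene passed 250. Without a signal filter, the log2 ratio of Tbl1xr1 was -0.06. The corepressor-associated deacetylase gene Hdac3 was also lower (206 in RXRγ mice, against 298 in control mice). The coactivator gene Ncoa1 was higher (288 in RXRγ mice, against 192 in control mice, log2 ratio 0.59). All 5 lower genes had a signal under 250 in RXRγ mice, so none is counted where both arrays must pass 250.

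Of 12 other LXR target genes, 10 are named on the array and 7 were measured, 5 higher and 1 lower, with a median log2 ratio of 0.72. Over all measured genes, 16.8% were higher and 20.1% lower. The list values depend on the signal filter. Where both arrays had to pass 250, 2 listed targets were higher, against 12.1% of all genes passing it. The list median was then 0.39 (-0.04 for all genes). That filter also takes genes out of the list, among them Srebf1 (249.9 in control mice) and Acaca (163 in control mice). Above 500, which also leaves out Acaca, 3 were higher, against 16.4% of all genes. With no filter, 4 were higher and 2 lower, and the list median was 0.08 (0.05 for all genes). Srebf1 had 867 in RXRγ mice, against 249.9 in control mice (3.47-fold) and Fasn had 1241 in RXRγ mice, against 519.7 in control mice (2.39-fold). The stearoyl-CoA desaturase gene Scd2 (at least 2.40-fold, since 1 of its probe sets was under 150 in control mice), Scd1 (log2 ratio 0.59, from probe sets at 0.39 and 0.78) and the acetyl-CoA carboxylase gene Acaca (log2 ratio 0.72) were the rest. They act in fatty acid synthesis, while the LXR targets of sterol excretion in liver and intestine, Abcg5, Abcg8 and Cyp7a1, were dim on both arrays. The lower gene was Smpdl3a, an LXR target known from human macrophages, which encodes a secreted phosphodiesterase and had 299.9 in RXRγ mice, against 814 in control mice (log2 ratio -1.44). Thus the listed LXR targets did not all go 1 way.

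Genes that handle cholesterol inside the cell went both ways. Of 24 named on the array, 13 were measured, 4 were higher and 2 were lower (median log2 ratio 0.20). The largest increase was that of Nceh1, a cholesteryl ester hydrolase that frees cholesterol for export (483 in RXRγ mice, against 185 in control mice, 2.61-fold). Osbpl8 and Osbpl1a, which encode oxysterol-binding protein relatives at membrane contact sites, were at least 2.14-fold and 1.82-fold higher. Cyp27a1, the mitochondrial enzyme that makes 27-hydroxycholesterol, an LXR ligand, was 1.89-fold higher (756 in RXRγ mice, against 400 in control mice; log2 ratio 0.92, and 1.54 without a signal filter). The lower genes were the carboxylesterase gene Ces1d (at least 3.60-fold) and Osbpl2 (log2 ratio -0.51).

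**Figure D3:**
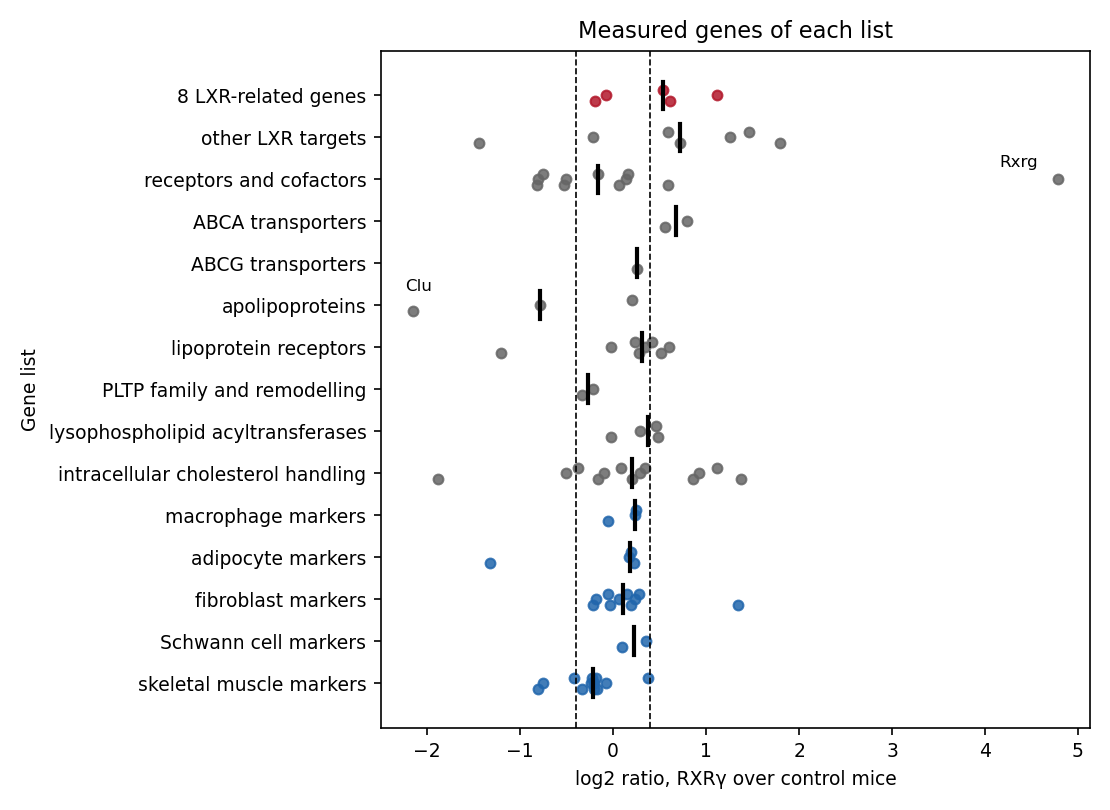
RXRγ over control log2 ratios by list, 1 point per gene (vertical spread carries no meaning); a black bar is a median, and the call threshold of 0.4 is dashed on each side. The 5 measured LXR-related genes are red and cell type markers blue. The medians of the LXR-related genes (0.54), other LXR targets (0.72) and ABCA transporters (0.68, from 2 genes) lie right of the upper line. That of other LXR targets was 0.39 where both arrays must pass 250, and 0.08 with no filter. The median of apolipoproteins (-0.79) lies left of the lower line, and those of all marker lists lie between the lines.

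Because Apoe, Abca1 and Apod are also expressed in macrophages, fibroblasts and Schwann cells, markers of the cell types that muscle can hold were set beside them. No marker was at 0 on an array. All 12 skeletal muscle markers were measured, 3 of them lower and none higher (median log2 ratio -0.22). Of all measured genes, 20.1% were lower. The lower markers were Myh2 (log2 ratio -0.81), Ckm (-0.75, from probe sets at -1.39 and -0.11) and Myh4 (-0.42, from probe sets at -0.77 and -0.06). The sum of the brightest probe sets of all 12 markers was 116414 in RXRγ mice, against 132844 in control mice. By these probe sets, 11 of the 12 were dimmer in RXRγ mice at some size.
Of 14 macrophage markers, 3 were measured, namely Lyz2 (549 in RXRγ mice, against 464 in control mice, log2 ratio 0.24), Csf1r (493 in RXRγ mice, against 416 in control mice, log2 ratio 0.25) and Mrc1 (252 in RXRγ mice, against 263 in control mice, log2 ratio -0.06). All lay within 0.4, 10 of the 14 were brighter in RXRγ mice at some size, and the sum over the list was 2392 in RXRγ mice, against 2071 in control mice. The ratio of these sums was 1.16, and most of the list was dim.
Of 10 fibroblast markers, all were measured and 9 lay within 0.4, in both directions. Among these were Gsn (log2 ratio -0.03), Dcn (log2 ratio 0.15), Col3a1 (log2 ratio 0.19) and Col1a1 (log2 ratio -0.22). The exception was the proteoglycan gene Lum (1771 in RXRγ mice, against 699 in control mice, 2.53-fold), and the sums were 22675 in RXRγ mice and 21539 in control mice. Of 7 Schwann cell markers on the array, 2 were measured and within 0.4 (Pmp22 0.35 and Mbp 0.09 on the log2 scale). All 7 were brighter in RXRγ mice at some size, and their sums were 1145 in RXRγ mice, against 868 in control mice, a ratio of 1.32, the other 5 being far under 150. With no signal filter, the median log2 ratio of the Schwann cell list was 0.91.
Of 8 adipocyte markers on the array, 4 were measured. Adipoq, Fabp4 and Retn had log2 ratios of 0.17, 0.19 and 0.22, and only Car3, which muscle also expresses, was lower (log2 ratio -1.32). The summed signal of the adipocyte list was 11361 in RXRγ mice, against 17545 in control mice, and Car3 alone carried its decrease, since the sum of the other 7 was 6644 in RXRγ mice, against 6129 in control mice. None of the 10 endothelial markers was measured, and 9 of them were dimmer in RXRγ mice at some size (summed signal 1291 in RXRγ mice, against 1529 in control mice). The part of these cell types in the differences of Apod, Abca1 and Apoe was not tested.

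The differences of the 3 higher genes were compared across other ways of scaling and filtering the arrays. Apod kept its call in every one of 12 alternatives, with log2 ratios from 0.76 to 1.17. Abca1 (0.21 to 0.64) lost its call without a signal filter and at a threshold of 1. Apoe (0.44 to 0.57) lost it at a threshold of 1 alone and had no value where 500 was required, because its signal does not reach it. Mylip (-0.30 to -0.18) was called in none, Nr1h3 had a value only without a filter (-0.10), and no gene of the 8 was called lower. Under median scaling, 504 of all measured genes were higher and 984 lower, compared with 636 and 760 on the deposited scale.

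**Figure D4:**
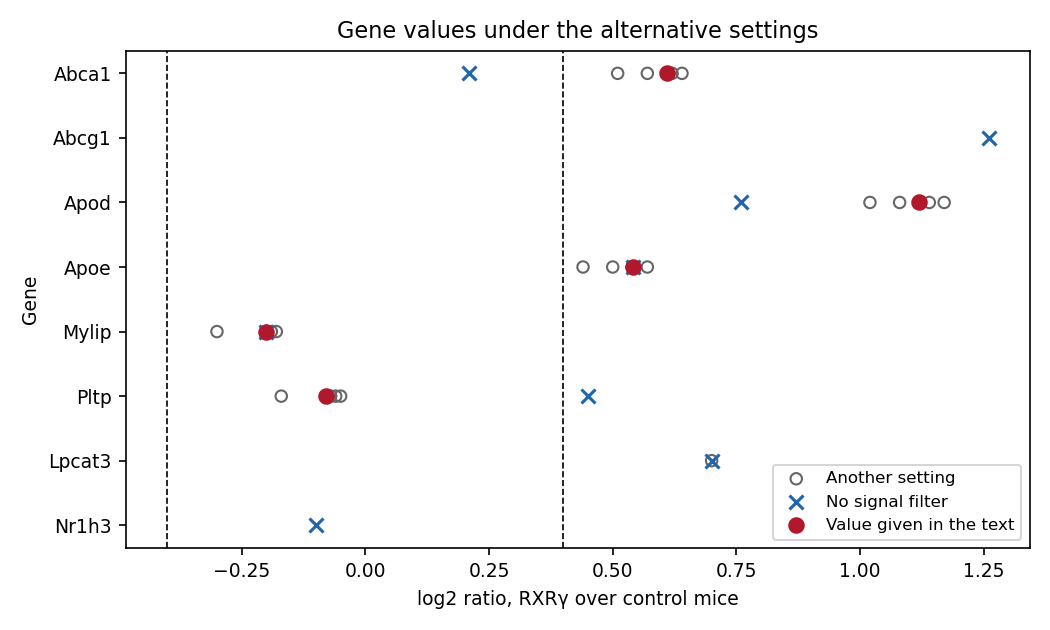
RXRγ over control log2 ratio of each of the 8 genes, as given in the text (red), under another scaling, filter or probe set choice (open grey) and with no signal filter (blue cross), with dashed lines at 0.4 in either direction. The values of Apod all lie right of the upper line, while without a filter Abca1 is at 0.21, Pltp at 0.45 and Abcg1 at 1.26, the last from signals far under 150.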

How the data were processed

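Skeletal muscle RNA of RXRγ mice and control mice was measured on 2 Affymetrix MG430 arrays, 1 pool and 1 array per genotype, grouped by the genotype in the labels. The authors made the deposited probe set intensity values with the Affymetrix Gene Chip software from perfectly matched and mismatched oligonucleotides. They are linear, and trimming 2% of values from either tail leaves a mean of 100 on each array, by a scaling whose algorithm the sources do not state. Detection calls were not used here. Probe sets named for 1 gene (34958) were used, while 932 named for several and 9211 without a symbol were left out. Ratios (RXRγ over control) were taken on the log2 scale without a pseudocount, averaged over the probe sets of a gene past 250 on the brighter array, and called at 0.4, with signals under 150 treated as bounds. No test was made. The steps were tested on simulated data. Genes were named by rule: all 8 genes, Rxrg and up to 4 called genes per list by size. The rule also held the 3 brightest of a cell type list with a measured gene, but not all of these were named. Further genes were named after their values were seen. The 8 genes and the lists were chosen with earlier results of these data known. Alternatives covered 3 other scalings, a pseudocount of 32, a floor of 150, 4 other filters, 2 choices of probe sets and a threshold of 1. Python 3.11.15, pandas 2.3.3, numpy 2.4.6, matplotlib 3.10.9 and limma 3.58.1 in R 4.3.3 were used.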

Additional observations from a re-analysis of the deposited data

How the results depend on the processing

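Over the alternatives, the 5 measured genes have 50 log2 ratios; in none did the fold move by a factor of 1.5 and no called gene changed sign, but calls near the threshold changed. Against 3 higher genes as reported, 5 were higher with no filter and 1 at a threshold of 1. The share of all genes that were higher was 16.8% as reported, 28.6% of 18194 with no filter and 5.05% at a threshold of 1. The 5 without a filter were not the 3 with others added: Abca1 (0.21) dropped out, and Lpcat3, Pltp and Abcg1 came in, the last 2 on signals under 150. No other alternative moved that count by more than 1.5 times, and none gave a lower gene. The median of the apolipoprotein list, -0.79 from 3 genes, was 0.29 with no filter, and the cause was not tested. The genes that enter this list without the filter were all under 150 on both arrays, where no fold can be given. The log2 ratio of the summed adipocyte signal, -0.63, was 0.12 without Car3, an alternative chosen after seeing the data. Of 536 counts and medians of lists under the alternatives, 470 were within a factor of 1.5 and 65 were not, beside the apolipoprotein median. The promoter match with 3 mismatches, found for 1 gene, was absent at 2 mismatches. Over all genes, 636 were higher and 760 lower as reported, 982 and 1028 above 150, 340 and 438 above 500, 371 and 501 above 250 on both arrays, 5208 and 4114 with no filter, and 191 and 155 at a threshold of 1. Of 275 log2 ratios of other named genes under the alternatives, 270 moved the fold by less than a factor of 1.5. No paired analysis was possible because each genotype has 1 array. Signals under 150 limit what can be said of Abcg1 and Nr1h3.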
